A study of Bos indicus x Bos taurus with 78 samples.

Results

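The miRNAs described here are the bovine products of the miR-424, miR-503, miR-450 and miR-542 cluster. They were chosen by name, as every entry of the deposited count table called miR-424, miR-503, miR-450a, miR-450b or miR-542, with or without an arm suffix. Of 1030 miRNA entries, 7 matched: bta-miR-424-5p, bta-miR-424-3p, bta-miR-450a, bta-miR-450b, bta-miR-503-5p, bta-miR-503-3p and bta-miR-542-5p. The prefix bta stands for Bos taurus and is left out below. The suffix 5p or 3p names the arm of the hairpin precursor from which a mature miRNA is cut.

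Small RNA was sequenced from biopsies of the Longissimus lumborum, a loin muscle, of 78 male Bos indicus x Bos taurus steers. Of these steers 25 were labelled dark-cutting and 53 normal, and no treatment or age was given in the labels. Dark-cutting steers carried a degree of 1/4 (8 steers), 1/3 (9 steers), 1/2 (3 steers), 2/3 (4 steers) or 3/4 (1 steer). The question was whether miRNAs of the muscle differ with the dark-cutting phenotype or with its degree.

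In mammals the genes of these miRNAs lie close together on the X chromosome, and miR-424 and miR-503 are cut from a shared primary transcript. In mouse muscle cells, miR-322, the rodent counterpart of miR-424, and miR-503 rise as myoblasts differentiate and promote exit from the cell cycle by acting on the phosphatase CDC25A. In human patients with muscle wasting, miR-424-5p has been tied to lower ribosomal RNA synthesis and miR-542 to mitochondrial dysfunction. Meat of dark-cutting cattle stays dark because too little glycogen is left in the muscle at slaughter for its pH to drop as usual.

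Each library held between 1427817 and 4535675 counts (median 3209320). The muscle miRNA miR-1 took between 72.3% and 88.6% of the counts of a library, and all 6 listed skeletal muscle markers were counted in every library. Markers of blood, endothelium, smooth muscle and fibroblasts were also counted in every library. In bulk tissue of this kind, fewer cells of a type and less RNA per cell cannot be told apart. Levels are given as CPM, a library-size-adjusted count scaled here with TMM factors, and differences as log2 fold changes, both of which are relative measures within a library. Steers numbered below 600 (8 dark-cutting, 18 normal) and at 600 or above (17 dark-cutting, 35 normal) were also compared separately, although the labels do not call these ranges batches.

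The cluster was a small part of the muscle miRNA pool. All 7 entries together took 0.0243% of the counts of the series. By total count, miR-450b ranked 88 of 1030 with 24028 counts, miR-450a ranked 94 with 20791 counts and miR-424-5p ranked 108 with 13475 counts. The next entries were about an order of magnitude scarcer: miR-424-3p ranked 195 with 1467 counts and miR-503-5p ranked 202 with 1221 counts. All 5 of these had at least 1 count in each of the 78 libraries, and these 5 passed the low-count filter of the tests. The remaining entries did not pass it: miR-542-5p had 229 counts spread over 71 libraries, and miR-503-3p, the minor arm of its hairpin here, had 16 counts in 13 libraries.

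The order of the members was largely the same from steer to steer. Within a library, miR-450b counts exceeded miR-450a counts in 62 of 78 steers, with a median ratio of 1.16-fold, so these neighbours in the order overlapped. Counts of miR-450a exceeded those of miR-424-5p in 75 of 78 steers, by a median of 1.53-fold. The step to the scarce members was much wider, since miR-424-5p exceeded miR-503-5p in 78 of 78 steers by a median of 11.2-fold. At the low end miR-424-3p and miR-503-5p overlapped, with the miR-424-3p count higher in 49 of 78 steers and a median ratio of 1.17-fold. Mature miRNAs are of nearly equal length, but differences in how well each is captured in library preparation were not tested.

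Variation between animals also differed among the members. The biological coefficient of variation that edgeR estimated was 26.2% for miR-450a, 26.6% for miR-450b and 26.9% for miR-424-5p, against a median of 26.5% over the 252 tested miRNAs. It was 33.3% for miR-424-3p and 37.9% for miR-503-5p, the scarcest tested members. The abundant members were thus about as variable as a typical miRNA of this muscle.

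None of the 5 tested members passed the test between dark-cutting and normal steers. For miR-450b, the most abundant member, dark-cutting steers ranged from 39.7 to 157.6 CPM with a median of 95.8 CPM, against 52.7 to 149.6 CPM with a median of 96.8 CPM in normal steers. For miR-450a, dark-cutting steers ranged from 46.7 to 124.7 CPM with a median of 76.4 CPM, against 36.3 to 136.2 CPM with a median of 79.3 CPM in normal steers. The groups overlapped almost wholly for both, with the medians closer together than the spread among steers of either group.

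For miR-424-5p, the guide strand with the cell-cycle role described above, dark-cutting steers ranged from 31.5 to 78.3 CPM with a median of 46 CPM, against 26.8 to 82.2 CPM with a median of 51.6 CPM in normal steers. Its partner strand miR-424-3p ranged from 3.07 to 10.04 CPM in dark-cutting steers, with a median of 5.97 CPM, against 0.818 to 9.40 CPM with a median of 5.39 CPM in normal steers. For miR-503-5p, dark-cutting steers ranged from 1.61 to 9.66 CPM with a median of 4.96 CPM, against 1.39 to 12.3 CPM with a median of 3.77 CPM in normal steers. The normal median was exceeded by 18 of 25 dark-cutting steers for miR-503-5p, 14 for miR-424-3p, 12 for miR-450a, 10 for miR-450b and 9 for miR-424-5p.

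The fitted log2 fold change of dark-cutting over normal steers was -0.058 ± 0.097 (SE) for miR-424-5p, with an adjusted p of 0.861 in edgeR's quasi-likelihood test with Benjamini-Hochberg adjustment. For miR-424-3p it was 0.18 ± 0.14 (edgeR adjusted p = 0.637), and for miR-503-5p it was 0.20 ± 0.16 (edgeR adjusted p = 0.641). Values for the miR-450 members were smallest, at -0.0021 ± 0.093 for miR-450a (edgeR adjusted p = 0.990) and -0.050 ± 0.094 for miR-450b (edgeR adjusted p = 0.891). Thus 0 of 5 members passed the adjusted threshold of 0.05, and 0% of all 252 miRNAs tested. At an unadjusted p below 0.05 the count was also 0 of 5, against 9.13% of all tested miRNAs, and neither DESeq2 nor limma-voom called a member.

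The precision of the comparison, under this model and TMM scaling, is given by its 95% intervals. The SEs behind them were derived from each log2 fold change and its F statistic. The 95% intervals of the fold of dark-cutting over normal steers ran from 0.840 to 1.10 for miR-424-5p, from 0.878 to 1.14 for miR-450a and from 0.848 to 1.10 for miR-450b. They were wider for the scarce members, from 0.933 to 1.38 for miR-424-3p and from 0.925 to 1.42 for miR-503-5p. Leaving out each of the 78 steers in turn called no member, and the log2 fold change stayed between 0.14 and 0.22 for miR-424-3p and between 0.14 and 0.25 for miR-503-5p. The authors' deposited table gave log2 fold changes of 0.19 for miR-424-3p, 0.20 for miR-503-5p and 0.0030 for miR-450a, with adjusted p-values from 0.827 to 0.993 over the 7 entries.

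The 2 ranges of animal numbers gave unlike values for miR-503-5p. At 600 or above it averaged 4.70 ± 1.91 CPM in dark-cutting steers (SD, n = 17) and 4.72 ± 2.68 CPM in normal steers (SD, n = 35), a log2 fold change of 0.026 (edgeR adjusted p = 0.981). Below 600 it averaged 5.93 ± 2.25 CPM in dark-cutting steers (SD, n = 8) and 4.03 ± 1.36 CPM in normal steers (SD, n = 18), a log2 fold change of 0.58 (unadjusted p = 0.0121, edgeR adjusted p = 0.584). The difference between the ranges itself did not pass, at -0.53 ± 0.33 on the log2 scale for the higher minus the lower range (edgeR adjusted p = 0.852). By that edgeR test 0 of 5 members and 0% of the 252 miRNAs passed, and at an unadjusted p below 0.05 the counts were 0 of 5 members and 3.97% of all.

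**Figure D1:**
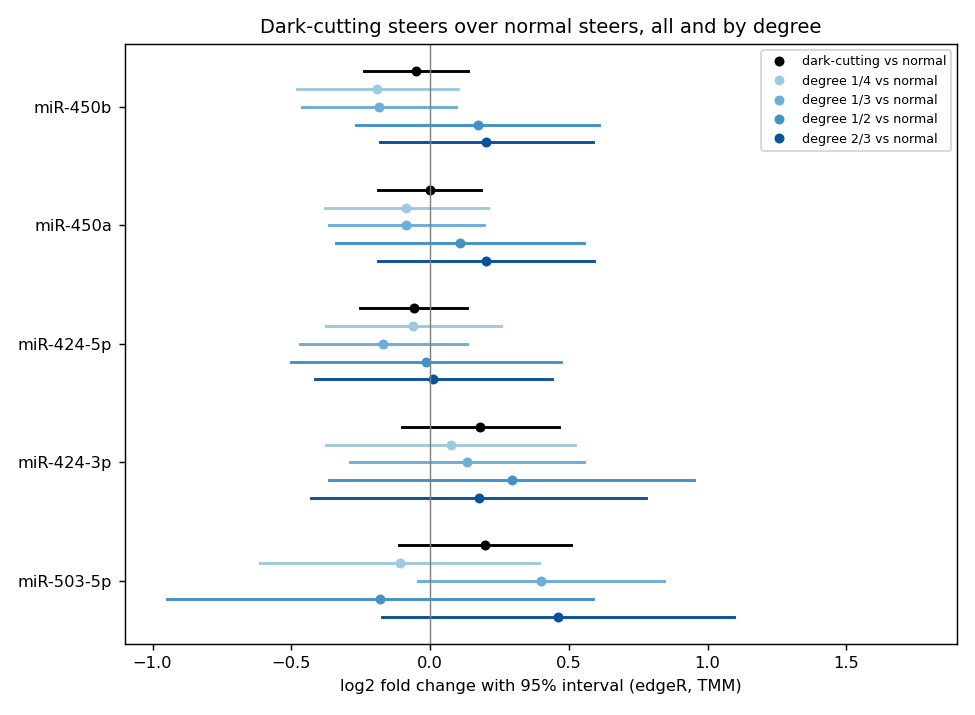
Log2 fold change over normal steers, with its 95% interval, for the 5 tested members in all 25 dark-cutting steers (black) and in degrees 1/4, 1/3, 1/2 and 2/3 (blue, darker with degree). Every interval crosses 0, and the intervals of degrees 1/2 and 2/3, with 3 and 4 steers, are the widest.

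Separating the dark-cutting steers by degree showed no called member at any degree. In the plot of levels by degree, miR-450b was lower on average at the milder degrees than at the higher ones. Normal steers had a median of 96.8 CPM, steers of degree 1/4 ranged from 39.7 to 108.1 CPM with a median of 95.3 CPM, and steers of degree 1/3 ranged from 56.1 to 103.9 CPM with a median of 82.5 CPM. The 3 steers of degree 1/2 had 116.6, 95.4 and 99.8 CPM. The 4 steers of degree 2/3 had 134.9, 60.7, 157.6 and 110.8 CPM, and the steer of degree 3/4 had 106.3 CPM.

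One steer of degree 2/3 carried the highest miR-450b level of all 78 steers, and another was among the 7 lowest. Against normal steers the log2 fold changes of miR-450b were -0.19 ± 0.15 at 1/4, -0.18 ± 0.14 at 1/3, 0.17 ± 0.22 at 1/2 and 0.20 ± 0.19 at 2/3, with edgeR adjusted p-values from 0.770 to 0.998. For miR-450a, the 3 steers of degree 1/2 had 93.4, 85.7 and 75.6 CPM. The 4 steers of degree 2/3 had 124.7, 48.8, 121.6 and 100.5 CPM, and the steer of degree 3/4 had 81.1 CPM. The same steer of degree 2/3 was low for both miR-450 members. At the milder degrees the median of miR-450a was 76.8 CPM at 1/4 and 73.4 CPM at 1/3, against 79.3 CPM in normal steers, and every dark-cutting steer lay inside the normal range.

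**Figure D2:**
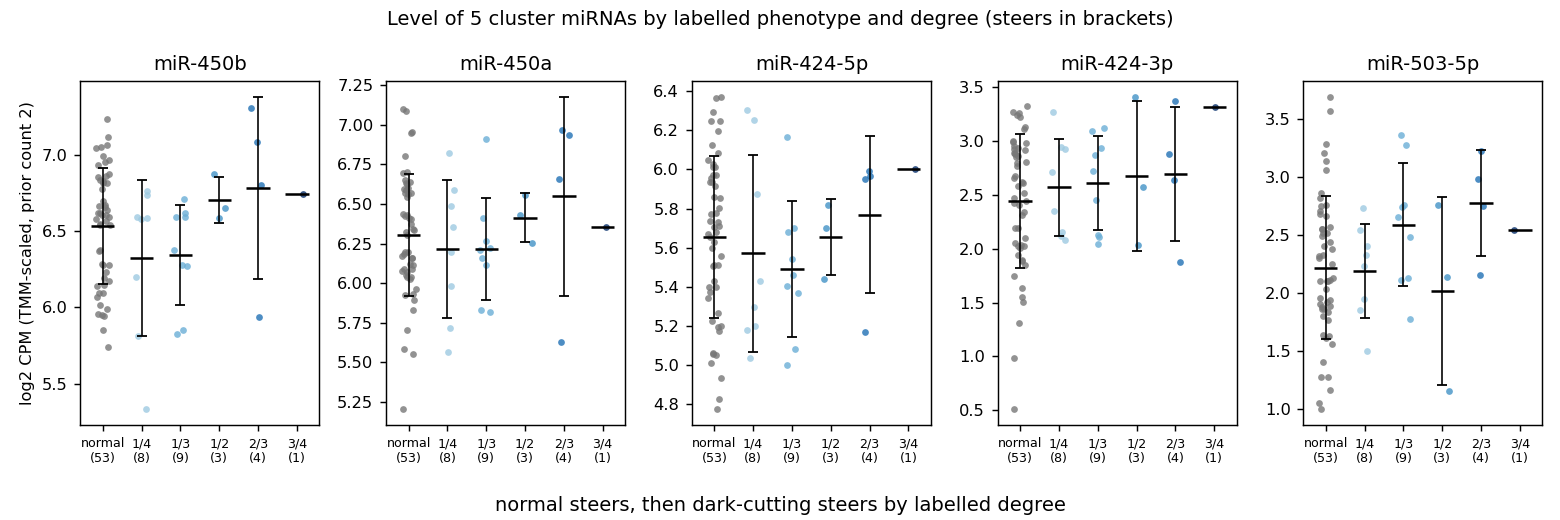
Log2 CPM of the 5 tested members in each steer, with normal steers first and dark-cutting steers by labelled degree on the x axis. Points are steers, lines are means and bars are SDs (none for the single steer of degree 3/4), and every degree overlaps the normal steers.

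For miR-503-5p, normal steers had a median of 3.77 CPM. Steers of degree 1/4 ranged from 2.21 to 6.02 CPM with a median of 4.24 CPM. Those of degree 1/3 ranged from 2.80 to 9.66 CPM with a median of 5.68 CPM. The 3 steers of degree 1/2 had 3.79, 1.61 and 6.13 CPM. The 4 steers of degree 2/3 had 8.71, 3.84, 6.10 and 7.30 CPM, and the steer of degree 3/4 had 5.22 CPM. All 4 steers of degree 2/3 lay above the normal median, but none left the normal range. The log2 fold change was 0.40 ± 0.22 at 1/3 (edgeR adjusted p = 0.592) and 0.46 ± 0.32 at 2/3 (edgeR adjusted p = 0.988), against -0.11 ± 0.25 at 1/4 and -0.18 ± 0.39 at 1/2.

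The miR-424 arms showed the same overlap. Medians of miR-424-5p were 40.7 CPM at 1/4 and 43.4 CPM at 1/3, and those of miR-424-3p were 5.23 CPM at 1/4 and 6.002 CPM at 1/3. For miR-424-5p the 3 steers of degree 1/2 had 55.9, 51.3 and 42.9 CPM, the 4 steers of degree 2/3 had 61.2, 35.4, 62 and 63 CPM, and the steer of degree 3/4 had 63.5 CPM. For miR-424-3p the corresponding values were 10.04, 3.49 and 5.36 CPM at 1/2, then 9.73, 3.07, 6.78 and 5.64 CPM at 2/3 and 9.35 CPM at 3/4. The highest miR-424-3p levels of all 78 steers were in 1 steer each of degrees 1/2 and 2/3, both above the normal range by a small margin. Log2 fold changes of miR-424-3p were between 0.074 and 0.29 over the 4 tested degrees, and those of miR-424-5p between -0.17 and 0.011, with edgeR adjusted p-values of 0.842 or more.

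Counted over the list, 0 of 5 members passed at degrees 1/4, 1/3, 1/2 and 2/3, against 0%, 0%, 0% and 0.368% of the 272 miRNAs tested. At an unadjusted p below 0.05 the edgeR counts were 0 of 5 at each degree, against 1.1%, 9.19%, 4.78% and 2.57% of all miRNAs. DESeq2 and limma-voom also called 0 of 5 at each degree after adjustment. At an unadjusted p below 0.05, limma-voom counted 1 member at 1/3. So did edgeR with total count scaling and edgeR with no filter. At degree 2/3 all 5 members had a value above 0, with a median of 0.20. Of all miRNAs 33.1% were above 0, with a median of -0.067. As the members varied together across steers, this was not a count of independent values. With 4 steers this count rested on few animals: leaving out the first put miR-424-3p at -0.041, leaving out the fourth put miR-424-5p at -0.077, and leaving out the low second steer put the 5 values between 0.17 and 0.63.

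A slope on the degree was then fitted, as the log2 change per unit of degree. Dark-cutting steers spanned only degrees 1/4 to 3/4, so a full unit is wider than the range observed. Over all 78 steers, with normal taken as 0, the slope was 0.49 ± 0.31 for miR-424-3p (edgeR adjusted p = 0.457) and 0.51 ± 0.35 for miR-503-5p (edgeR adjusted p = 0.507). The other slopes were 0.11 ± 0.20 for miR-450a, 0.084 ± 0.20 for miR-450b and -0.039 ± 0.22 for miR-424-5p. Thus 0 of 5 members passed, against 0.368% of the 272 miRNAs, and 0 of 5 reached an unadjusted p below 0.05, against 11% of all. DESeq2 and limma-voom also called 0 of 5. With total count scaling, 2 members had an unadjusted edgeR p below 0.05 and none was called. That scaling moved the median slope of all miRNAs to 0.19. Without the steers of degree 2/3 the slopes of miR-450a and miR-450b were -0.089 and -0.14.

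Within the 25 dark-cutting steers alone, all 5 slopes were above 0, with a median of 0.60. Of the 251 tested miRNAs 39% were above 0, with a median of -0.10. The members varied together in these steers (r = 0.857 for miR-450a with miR-450b), so the 5 slopes were not independent of each other. The steepest was miR-450b at 0.99 ± 0.47, with an unadjusted p of 0.0402 and an edgeR adjusted p of 0.998, which ranked it 9 of 251 by p. The others were 0.64 ± 0.64 for miR-424-3p, 0.60 ± 0.46 for miR-450a, 0.58 ± 0.72 for miR-503-5p and 0.38 ± 0.47 for miR-424-5p. None passed the adjusted threshold by edgeR, DESeq2 or limma-voom, and by edgeR 0% of the 251 miRNAs passed. At an unadjusted p below 0.05 edgeR counted 1 of 5, against 3.59% of all miRNAs and 1.99% with a positive slope.

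Leaving out each dark-cutting steer in turn kept the miR-450b slope between 0.80 and 1.32, and its unadjusted p was below 0.05 in 20 of 25 fits. Without the single steer of degree 3/4 it was 1.18. The slope of miR-450a lay between 0.44 and 0.94 over these fits. For both miRNAs the highest value came without the low second steer of degree 2/3, and for both the lowest came without a steer of the same degree with a high level.

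Both arms of the miR-424 hairpin were counted in every library, so their ratio could be compared without any library scaling. The 5p arm exceeded the 3p arm in all 78 steers, by a median of 9.14-fold. Per steer the ratio ran from 3.88 to 14.2-fold with a median of 8.95-fold in dark-cutting steers, against 4.27 to 41.8-fold with a median of 9.27-fold in normal steers. The medians lay close together, and the widest ratios were all in normal steers. On the log2 scale the mean was 3.06 ± 0.44 in dark-cutting steers (SD, n = 25) and 3.33 ± 0.72 in normal steers (SD, n = 53). The difference of -0.28 did not pass a two-sided permutation test with 100000 resamples (p = 0.0814).

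The difference of medians was -0.050 (permutation p = 0.517). Within the number ranges the difference of means was -0.29 below 600 (permutation p = 0.303) and -0.28 at 600 or above (permutation p = 0.166). The 3p arm had fewer than 10 counts in 1 of 25 dark-cutting steers and in 12 of 53 normal steers, where a ratio is least precise, and the part of this in the difference was not tested.

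**Figure D3:**
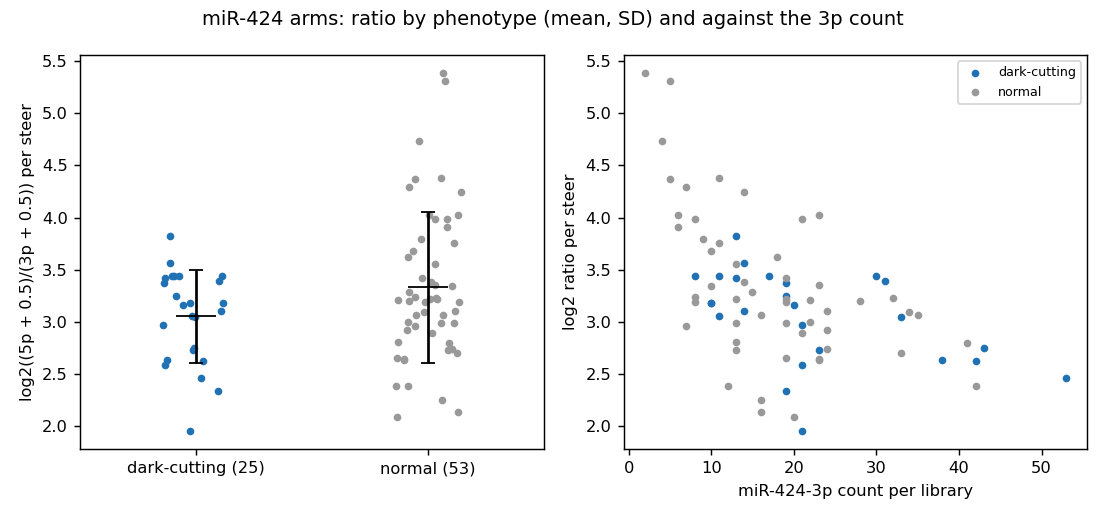
Left, log2 ratio of miR-424-5p to miR-424-3p counts per steer (0.5 added to each count), with mean and SD in 25 dark-cutting and 53 normal steers. Right, the same ratio against the miR-424-3p count of the library. The widest ratios, all in normal steers, sit at low 3p counts. As the 3p count is the denominator of the ratio, this relation is partly built in.

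Across animals the members varied together. Pearson correlations of log2 CPM over the 78 steers were above 0 for all 10 pairs of the 5 tested members, from 0.217 to 0.763 with a median of 0.375. Of the 10 pairs, 5 passed the adjusted threshold by Pearson's r and 6 by Spearman's rho, with p-values adjusted over the 1245 correlations of a member with any other tested miRNA. Of the 1235 correlations between a member and another miRNA 2.02% passed, with a median r of -0.010. Of these 25 passing correlations 20 were with miR-424-5p, and 15 of those 20 were negative, down to r = -0.63. Among all 31626 pairs of tested miRNAs, 4.86% had an r at or above the members' median.

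The closest pair was miR-450a with miR-450b, with r = 0.763 and rho = 0.773, a permutation p of 1e-05, the smallest that 100000 resamples can give, and an adjusted permutation p of 0.00178. Next came miR-450a with miR-424-5p (r = 0.525, rho = 0.537) and miR-450a with miR-503-5p (r = 0.505, rho = 0.508), each with the same permutation p and adjusted permutation p. These 3 partners were the 3 highest correlates of miR-450a among 251 miRNAs. Conversely, miR-450a had the highest signed r of all 251 with each of miR-450b, miR-424-5p and miR-503-5p. Without the 2 steers farthest from the median of the first-named miRNA, counting miR-424-5p as first in its pair, the 3 values were 0.765, 0.534 and 0.471.

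**Figure D4:**
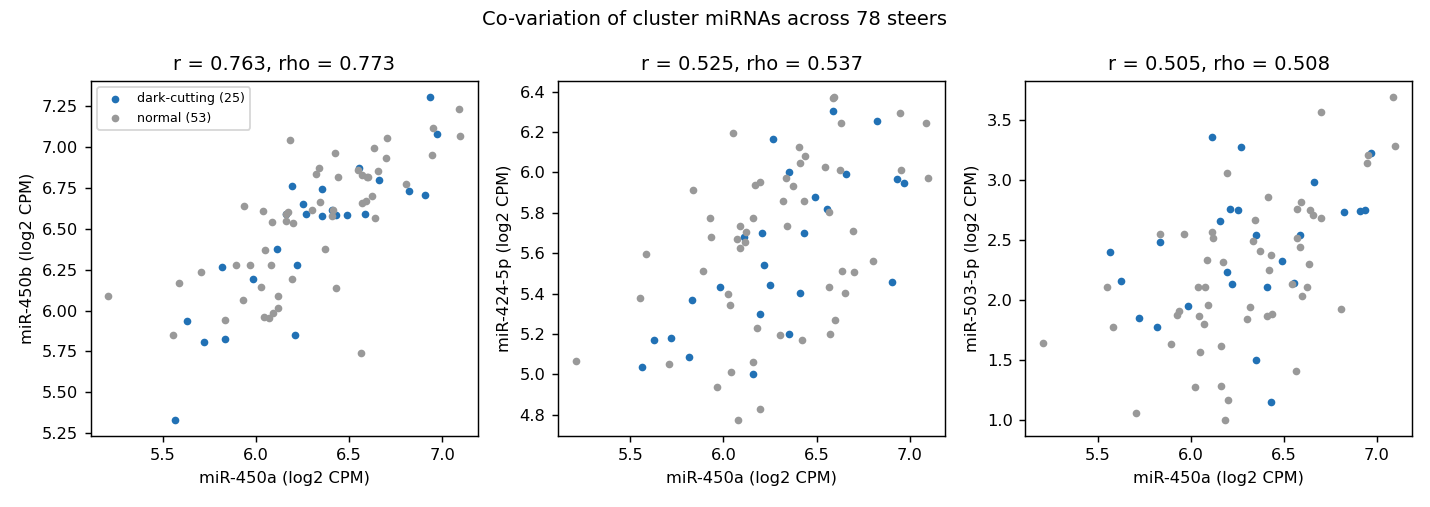
Log2 CPM of miR-450b, miR-424-5p and miR-503-5p against that of miR-450a, with 25 dark-cutting steers in blue and 53 normal steers in grey. Each panel rises from left to right, with r = 0.763, 0.525 and 0.505, and both phenotypes lie along the same band.

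Correlation of miR-424-5p with miR-450b was 0.418 (rho = 0.422, adjusted permutation p = 0.0152), and 0.406 without the 2 farthest steers. That of miR-424-3p with miR-450b was 0.405 (rho = 0.377, adjusted permutation p = 0.0212), but 0.3204 without the 2 farthest steers (adjusted permutation p = 0.0968), so its passing the threshold by r rested on those steers. The 2 arms of miR-424 correlated at 0.302 (rho = 0.326, adjusted permutation p = 0.122). Their r was 0.562 within dark-cutting steers and 0.234 within normal steers, neither passing. The 3p arm had a median of 18.5 counts, and the effect of counting error on this r was not tested. The lowest pair was miR-424-3p with miR-503-5p at 0.217 (rho = 0.192), the scarcest of the tested members.

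The correlation of miR-450a with miR-450b held in every subset of steers tested. It was 0.785 below number 600 and 0.759 at 600 or above, and 0.857 within dark-cutting steers and 0.715 within normal steers. For miR-450a with miR-424-5p the values were 0.409 below 600 and 0.589 at 600 or above, and 0.697 in dark-cutting and 0.448 in normal steers. For miR-450a with miR-503-5p they were 0.316 below 600 and 0.578 at 600 or above, and 0.333 in dark-cutting and 0.590 in normal steers. The pair miR-450b and miR-503-5p was the least even, with r = -0.0094 below 600 and 0.510 at 600 or above, against 0.334 over all steers (rho = 0.381, adjusted permutation p = 0.0729 for r).

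Fewer pairs passed in subsets of the steers, with 1 of 10 in the 26 steers below 600, 4 of 10 in the 52 at 600 or above, 2 of 10 in the 25 dark-cutting and 2 of 10 in the 53 normal steers. Scaling by total counts alone let all 10 pairs pass, but then 58.5% of the correlations with other miRNAs passed too, with a median r of 0.282.

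**Figure D5:**
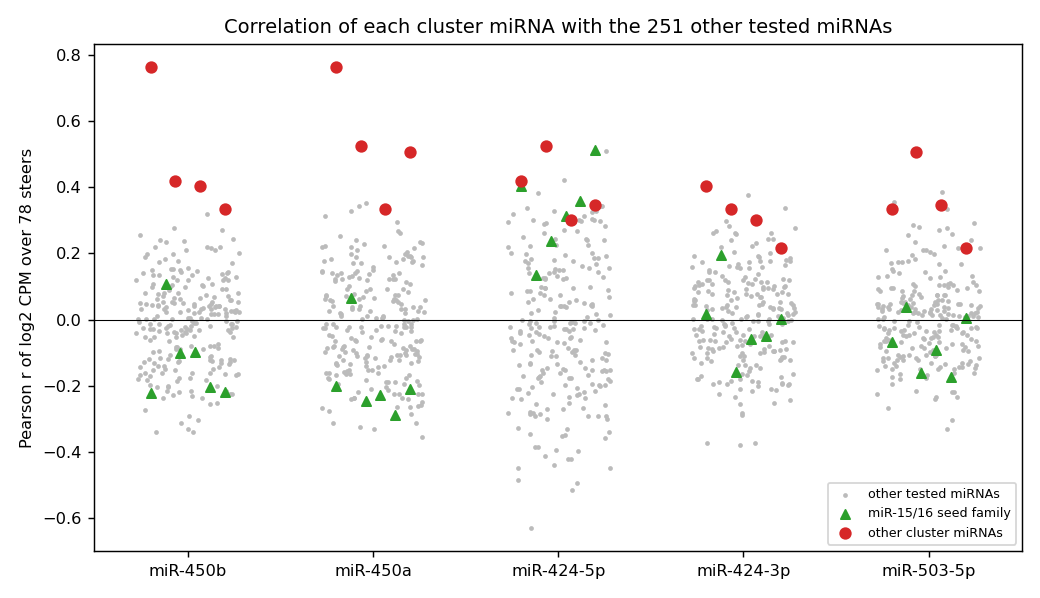
Pearson r over 78 steers of each tested member with the 251 other tested miRNAs. Red points are the other members, green triangles the miR-15/16 seed family and grey points the rest. Red points lie in the upper part of each column, and the triangles for miR-424-5p lie between 0.134 and 0.511.

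The mature miR-424-5p is known to share its seed, the stretch that pairs with target mRNAs, with miR-15a, miR-15b, miR-16a, miR-16b, miR-195 and miR-497, which restrain the cell cycle. None of these 6 was called in any comparison by edgeR. Between dark-cutting and normal steers 3 of 6 had a log2 fold change above 0, with a median of -0.045. Of all 252 tested miRNAs 46% were above 0, with a median of -0.0091. The smallest p was for miR-16a, at -0.17 ± 0.08 (unadjusted p = 0.0349, edgeR adjusted p = 0.416). Its trend over all steers was -0.45 ± 0.18 (edgeR adjusted p = 0.322). Within dark-cutting steers 1 of 6 had a slope above 0, with a median of -0.40, against 39% of all 251 tested miRNAs, with a median of -0.10. Reads of miR-16a and miR-16b, which are near-identical, could have been split between them in counting.

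Across steers, 2 of these 6 correlated with miR-424-5p past the adjusted threshold by Pearson's r, both positively. Of all 247 miRNAs outside the cluster, which include these 6, 20 passed, and 5 of those were positive. With either miR-450 member 0 of 6 passed, as 0 of 247 did. The correlation of miR-424-5p with miR-497 was 0.511 (rho = 0.429, adjusted permutation p = 0.00277 for r), and with miR-15a it was 0.405 (rho = 0.362, adjusted permutation p = 0.0152 for r). Without the 2 farthest steers these were 0.463 and 0.371. By rho miR-497 passed (adjusted permutation p = 0.0113) but miR-15a did not (adjusted permutation p = 0.0502). Below 600 r was 0.547 for miR-497 and 0.668 for miR-15a, and at 600 or above it was 0.486 and 0.233. With miR-497 the correlation was -0.21 for miR-450a and -0.22 for miR-450b, neither passing (adjusted permutation p = 0.346 and 0.322). These signs depended on the scaling, since on total counts alone they were 0.331 and 0.283, against 0.763 for miR-424-5p. The difference between these correlations was not tested.

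By highest Pearson r over the 78 steers, the 3 miRNAs outside the cluster most like miR-424-5p were miR-497, miR-27a-3p at 0.510 (rho = 0.410) and miR-362-3p at 0.423 (rho = 0.450), which all passed (adjusted permutation p of at most 0.00862). Without the 2 farthest steers miR-27a-3p was at 0.452 and miR-362-3p at 0.423. For miR-424-3p the leading one was miR-27a-5p at 0.378 (rho = 0.333, adjusted permutation p = 0.0309 for r), followed by let-7d at 0.336 and miR-543 at 0.297. Without the 2 farthest steers these were 0.269, 0.184 and 0.108. By rho miR-27a-5p did not pass (adjusted permutation p = 0.0776).

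For miR-503-5p the leading one was miR-411c-5p at 0.384 (rho = 0.344, adjusted permutation p = 0.0270 for r). It was followed by miR-495 at 0.354 and miR-494 at 0.335, which did not pass by r. Without the 2 farthest steers the r of miR-411c-5p was 0.315. By rho miR-411c-5p did not pass (adjusted permutation p = 0.0653). However, miR-495 (rho = 0.369, adjusted permutation p = 0.0430) and miR-494 (rho = 0.402, adjusted permutation p = 0.0183) passed by rho. No miRNA outside the cluster passed by r for miR-450a or miR-450b. The nearest to miR-450a were miR-1839 at 0.352, miR-660 at 0.343 and miR-380-3p at 0.328, and the nearest to miR-450b were miR-494 at 0.318, miR-2419-5p at 0.277 and miR-432 at 0.271.

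On the TMM scale, the members' correlations with the makeup of the library had unlike signs, and the differences between these correlations were not tested. Over the 78 steers, the correlation with the share of counts taken by miR-1 was -0.37 for miR-424-5p, 0.31 for miR-450b and 0.19 for miR-450a. With the summed level of the 6 skeletal muscle markers it was -0.42 for miR-424-5p, 0.23 for miR-450b, 0.085 for miR-450a, -0.19 for miR-424-3p and -0.038 for miR-503-5p. Most of this sum was miR-1, so these values are not independent of those with the miR-1 share. Other marker lists gave values of similar size: red blood cells -0.34 with miR-424-5p, smooth muscle and pericytes -0.30 with miR-503-5p and -0.25 with miR-424-3p, and white blood cells -0.27 with miR-450a. With endothelium and fibroblasts the values lay between -0.20 and 0.17. These are descriptions on the TMM scale, in which miR-1 and the members share each library's scaling factor, and the part of tissue makeup in the members' levels was not tested.

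The 2 members below the filter had few counts. In dark-cutting steers miR-542-5p had between 0 and 9 counts with a median of 2, and no count in 4 of 25 libraries. In normal steers it also had between 0 and 9 counts with a median of 2, and no count in 3 of 53 libraries. For miR-503-3p, 20 of 25 dark-cutting and 45 of 53 normal libraries had no count, and the highest count was 3 in a dark-cutting and 2 in a normal library. A count of 0 still allows a level of up to 0.661 to 2.10 CPM of miR-503-3p in those libraries, by total count scaling. This limit of 3 counts covers counting error only. It was scaled without TMM factors, so it is not on the scale of the other CPM values. In the authors' deposited table the log2 fold change was -0.22 ± 0.28 (SE) for miR-542-5p and 0.14 ± 0.99 (SE) for miR-503-3p. Neither passed in that table, and the estimate for miR-503-3p was much the less precise. With no filter, edgeR gave -0.19 for miR-542-5p (adjusted p = 0.780) and 0.29 for miR-503-3p (adjusted p = 0.757).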

How the data were processed

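Small RNA libraries were made from total RNA of 78 muscle biopsies with a NEXTflex kit, per the labels' protocols. Per the submitters' processing notes, FastQC, Trimmomatic 0.32 and DESeq2 1.34.0 were used. For the aligner, counting tool, miRNA reference and build, the sources used here give no name. No genomic positions or mature sequences were used. The authors deposited raw read counts, whole numbers for each miRNA in each steer, as the file headers and values show. A second table deposited by the authors holds a mean normalized signal, a log2 fold change with its error, a Wald score, and a p-value with its adjusted p-value. Its headers name no contrast. Its Wald scores were matched within 7.55e-08 by DESeq2 1.42.0 run on both phenotypes, restricted to the 542 miRNAs whose counts summed to 10 or more.

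Tests used edgeR 4.0.16 under R 4.3.3 (TMM, robust quasi-likelihood F test, Benjamini-Hochberg adjustment over all tested miRNAs, threshold 0.05), checked on simulated counts. The filter was filterByExpr with a minimum count of 10 (252 miRNAs). For degrees and slopes a miRNA needed the CPM of 10 counts in 8 libraries or more, with a sum of 15 or more (272 miRNAs, or 251 within dark-cutting steers). All 78 steers shared 1 fit for the degrees, so the degrees share their normal steers. Log2 CPM used a prior count of 2. Correlations and the arm ratio were tested by permutation in Python 3.11.15 with numpy 2.4.6.

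Title numbers mark each steer as a separate animal, and no 2 libraries were near copies (3003 pairs, smallest chi-square per degree of freedom 6.30). Of the table's entries, 21 had counts identical to an earlier one, and no member did. Alternatives were DESeq2, limma-voom (limma 3.58.1), other scalings, no filter, number range as a covariate and left-out steers. The miRNAs named are the members, the miR-15/16 seed family, and the 3 most correlated miRNAs per member. Members, lists and alternatives were chosen with earlier results of these data known.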

Additional observations from a re-analysis of the deposited data

Results flagged for a closer look

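Among 18 sets of values of 1 degree (5 members and the miR-424 arm ratio, in degrees 1/4, 1/3 and 2/3), 2 held a steer far from the others of its group by Dixon's test. Chance flags about 1 in 20 such sets. In degree 2/3, the second steer had a miR-424-5p level of 5.17 log2 CPM, while the other 3 steers lay between 5.95 and 5.99. In degree 1/4, the seventh steer had a log2 ratio of miR-424-5p to miR-424-3p of 2.34, while the other 7 steers lay between 3.05 and 3.44.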

How the results depend on the processing

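No member was called under any alternative, but small values changed sign. Between dark-cutting and normal steers, miR-450a was at 0.0029 with DESeq2 and with RLE size factors, 0.108 with total count scaling, 0.012 with no filter, 0.0034 without normal replicate 19 and 0.121 below number 600. Total count scaling, which moved the median of all miRNAs to 0.10, put miR-424-5p at 0.030 and miR-450b at 0.057. Below 600 miR-424-5p was at 0.103, and at 600 or above miR-450b was at 0.031. By degree, limma-voom put miR-503-5p at 0.0078 (1/4) and miR-424-5p at 0.033 (1/2), and total count scaling put miR-450a at 0.042 (1/3) and miR-424-5p at 0.133 (1/2). Leaving out 1 steer of degree 1/2 gave -0.21 to 0.55 for miR-424-3p, -0.65 to 0.14 for miR-503-5p and -0.089 to 0.088 for miR-424-5p. Leaving out 1 of degree 2/3 gave -0.041 to 0.38 for miR-424-3p and -0.077 to 0.17 for miR-424-5p. The slope of miR-424-5p over all steers was 0.0036 with limma-voom, 0.167 with total count scaling and 0.0095 with no filter. Without degree 2/3 the slopes of miR-450a and miR-450b were -0.089 and -0.14. The correlation of miR-450b with miR-503-5p was -0.0094 below 600.

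Over all miRNAs, 2 passed between dark-cutting and normal steers with no filter. At degree 2/3, the calls ranged from 0 to 1 when 1 steer was left out. Over all steers the slope was called for 3 miRNAs with DESeq2, RLE, total count scaling or no filter, and for 0 with limma-voom or without degree 2/3. Passing member pairs numbered 10 with total count scaling, 1 below 600, 2 in dark-cutting steers and 2 in normal steers. The subsets held fewer steers, and the cause of these changes was not tested. No paired analysis was possible because replicate numbers only count steers within a group. The scarce members, with a median of 18.5 and 14 counts per library for miR-424-3p and miR-503-5p, limit what could be seen.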
